A study of Mus musculus with 4 samples.

Results

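Cycling macrophages of subcutaneous Lewis lung carcinoma (LLC) tumors were examined in single-cell RNA sequencing libraries. They were selected on unique molecular identifier (UMI) counts, the number of distinct captured RNA molecules per gene. A barcode was a member if it had at least 200 genes, at most 20% mitochondrial UMIs, at least 3 UMIs of C1qa, C1qb and C1qc together, at least 1 UMI of Csf1r or Adgre1, at least 3 UMIs of Mki67, Top2a, Cdk1, Birc5, Pclaf and Ube2c together, and no UMI of Rhox5, a gene of the LLC cells. The rule found 226 members among 55058 kept barcodes, 88 in the non-irradiated library and 50, 62 and 26 in the 3 irradiated libraries.

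LLC is a lung carcinoma line of C57BL/6 mice. The tumors grew under the skin of female C57BL/6N mice, written C57/BL6N in the sample labels, aged 6 to 8 weeks. Tumors of about 100 mm3 received 24 Gy as 3 fractions of 8 Gy on days 7 to 9 (RT) or a mock treatment (NT) and were taken 72 h after it. The NT library held a mixture of 3 tumors, and RT1, RT2 and RT3 held 1 tumor each, so that NT had no measure of the spread between tumors, and RT was set against NT by size, with tests that assume NT to vary like RT as alternatives only. Kept barcodes numbered 9976 in NT and 15029, 14993 and 15060 in the RT libraries, with 69667759, 78585759, 108699844 and 85660188 UMIs in the libraries as deposited. Values of the RT libraries are given in the order RT1, RT2, RT3. Both groups carried the same transplanted line and had no other treatment, allele or depletion in these libraries.

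Most macrophages in tumors come from blood monocytes, but differentiated macrophages can also divide, and colony-stimulating factor 1 acting on its receptor Csf1r is the best known signal for both. A dividing cell copies its DNA in S phase with the Mcm helicase, Pcna and ribonucleotide reductase, then enters G2 and mitosis with the kinase Cdk1, its cyclins, topoisomerase Top2a and the spindle proteins. Irradiated cells can stop between these steps when the p53 protein turns on Cdkn1a, an inhibitor of the cyclin-dependent kinases.

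Members carried both the macrophage and the cycle genes of their label. C1qb, a chain of the complement protein C1q and typical of tissue macrophages, had a UMI in 93.2% of NT members and in 100%, 98.4% and 96.2% of those of RT1, RT2 and RT3. Adgre1, which encodes the macrophage antigen F4/80, was found in 69.3%, 74.0%, 75.8% and 76.9% of members, and C1qa in 76.1%, 62.0%, 77.4% and 84.6%. Of the markers of division, Top2a was found in 77.3%, 74.0%, 75.8% and 69.2% of members, Birc5, an inhibitor of apoptosis that acts in chromosome segregation, in 75.0%, 66.0%, 56.5% and 73.1%, and Mki67, a coat protein of mitotic chromosomes, in 65.9%, 44.0%, 45.2% and 53.8%. These genes formed the rule and their presence is no finding. Genes that the rule did not use were those of macrophages as well. Lyz2, a lysozyme, was at 14608, 18092, 17415 and 20312 CPM (UMIs per 1e6 UMIs) of the summed members of NT, RT1, RT2 and RT3, and 14 macrophage identity genes summed to 29771, 36447, 35618 and 41166 CPM.

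Genes of other cell types were low in the members, with exceptions in the RT libraries. Summed over 10 tumor cell genes, members held 61.3, 198, 90.1 and 193 CPM in NT, RT1, RT2 and RT3, with 4, 6, 4 and 5 of these genes at 0 and Hmga2, Krt8, Cav1 and Krt8 as the most abundant. Non-cycling macrophages, which met the macrophage thresholds with 0 UMIs of the 6 cycle genes, held 71.9, 108, 86.8 and 108 CPM of the same genes. The 7 T cell genes summed to 23.7, 85.0, 33.1 and 336 CPM, led by Cd8a, Cd3e, Cd4 and Trbc2, with 2, 1, 5 and 0 of them at 0. The 5 natural killer (NK) cell genes summed to 4.0, 16.2, 282 and 429 CPM, with 3, 3, 0 and 1 at 0, and Gzma alone gave 118 UMIs in RT2 and 46 in RT3. The summed T and NK cell genes thus stood higher in each RT library than in NT. In RT2 the T cell sum rested on Cd4, with 17 UMIs and 5 of the 7 genes at 0. Without Cd4 and Cd8a, the other 10 T and NK cell genes sat in few barcodes. Members with at least 2 UMIs of 10 T and NK cell genes numbered 1, 2, 2 and 1 and held 4 of 6, 17 of 17, 152 of 154 and 115 of 116 of these UMIs. The 5 neutrophil genes summed to 7.9, 44.5, 84.6 and 37.3 CPM, led by Csf3r. The 5 fibroblast genes summed to 23.7, 36.4, 36.8 and 68.5 CPM, and endothelial, dendritic, B and erythroid cell lists each to 20.2 CPM or less. The summed tumor, T cell, NK cell, neutrophil and fibroblast genes were higher in every RT library than in NT, and no counting interval was made for these sums. Some rested on few UMIs. The leading fibroblast gene Col3a1 had 12 UMIs in NT and 6, 17 and 9 in RT, and Csf3r had 4 and 10, 39 and 5. Without members that held a Krt8 or Krt18 UMI, the calls between RT and NT given further on were 40 higher and 23 lower in place of 44 and 24, and the part of neutrophil and fibroblast genes was not tested.

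Depth, doublets and shared barcodes were set beside these values. The median member had 5639 UMIs in NT and 4422, 8662.5 and 6111 in the RT libraries, against 3374, 2620, 4008 and 2632 in non-cycling macrophages. A doublet score placed 12, 15, 15 and 2 members, or 13.6%, 30.0%, 24.2% and 7.69%, among the 8% of barcodes with the highest score of their library. The same held for 2.20%, 2.42%, 2.68% and 2.11% of non-cycling macrophages. Members therefore had more UMIs and more high doublet scores than non-cycling macrophages in every library, and a dividing cell and a pair of cells cannot be told apart by either measure. Pairs of libraries shared 175 to 274 barcodes, 1.16% to 1.83% of the kept barcodes, and 13 of the 226 members (4, 1, 5 and 3) had a barcode that another library also held.

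At the threshold of the rule, 29, 76, 83 and 28 macrophage barcodes of NT, RT1, RT2 and RT3 lay just outside with 2 UMIs of the 6 cycle genes. Just inside, 15, 14, 18 and 12 members had 3 UMIs, and the median member had 8, 6.5, 6 and 4. Members expressed a median of 4, 3, 3.5 and 3 of the 6 genes, and 175 of the 226 had 3 genes or more. RT3 had both the fewest members and the fewest cycle UMIs per member.

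The share of macrophages that cycled was 18.7% in NT, 88 of 470 macrophage barcodes, with an exact 95% binomial interval of 15.3% to 22.5%. It was 2.32% in RT1 (50 of 2151, 1.73% to 3.05%), 2.82% in RT2 (62 of 2197, 2.17% to 3.60%) and 2.75% in RT3 (26 of 947, 1.80% to 3.997%). The RT libraries overlapped one another and all lay below NT, with a mean of 2.63% ± 0.268 (SD, n = 3) and 7.12 times less than NT. Macrophage barcodes made up 4.71%, 14.3%, 14.7% and 6.29% of kept barcodes. Cycling macrophages made up 0.882% (0.708% to 1.09%) of kept barcodes in NT and 0.333%, 0.414% and 0.173% in the RT libraries, a mean of 0.306% ± 0.123 (SD, n = 3) that was 2.88 times below NT. Fewer cycling macrophages and less cycle RNA per macrophage cannot be told apart in such shares, and intervals of barcodes cover counting error only.

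At equal depth the RT mean was 15.7 percentage points below NT, against 16.1 without thinning and 25.2 at 5000 UMIs, where fewer barcodes remain. Each barcode was thinned to 3000 UMIs and the rule applied again, which left out 174, 1154, 623 and 510 shallower macrophage barcodes. Rhox5 was counted after thinning, so barcodes that lost their Rhox5 UMIs in thinning could enter. With Rhox5 at 0 before thinning too, the RT mean was 14.8 percentage points below NT in place of 15.7. The share was then 18.4% (53 of 288, 14.1% to 23.4%) in NT, 3.22% (34 of 1055) in RT1, 2.06% (33 of 1605) in RT2 and 2.93% (13 of 444) in RT3, a mean of 2.74% ± 0.607 for RT (SD, n = 3). Without a threshold per barcode, the 6 cycle genes summed over all macrophage barcodes came to 636 CPM (602 to 672) in NT and 134 (126 to 143), 121 (114 to 127) and 142 (129 to 155) CPM in the RT libraries. Genes outside the rule were also higher in NT than in every RT library over all macrophages. The S phase list stood at 2027 CPM in NT and 907, 796 and 862 CPM in the RT libraries, and the G2 and mitosis list at 1376 CPM in NT and 479, 395 and 524 CPM in RT.

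**Figure D1:**
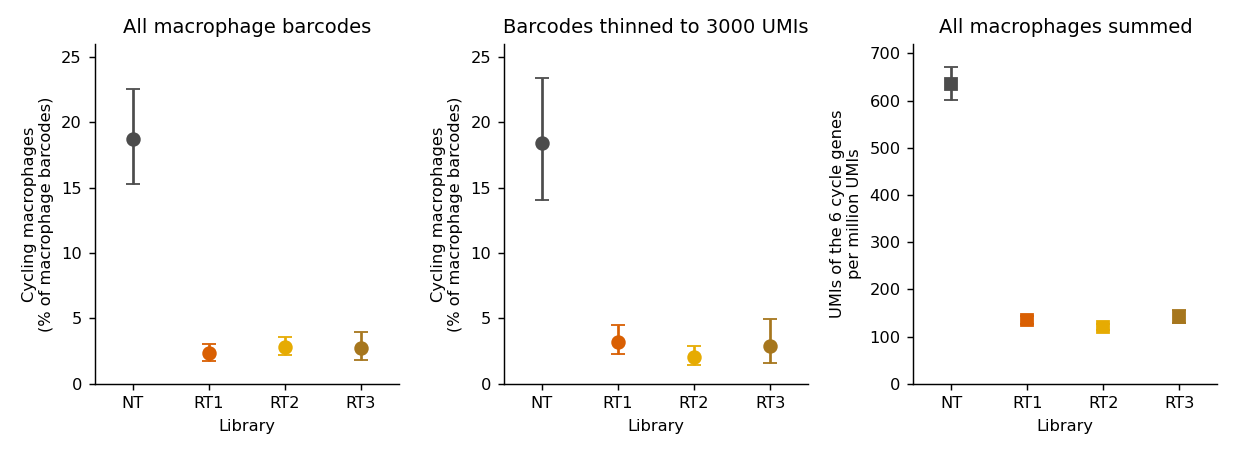
Share of macrophage barcodes that cycled, in percent, for all barcodes (left) and after thinning to 3000 UMIs (middle), and UMIs of the 6 cycle genes in CPM of all macrophages (right), for each library with its exact 95% counting interval. NT lies at 18.7%, 18.4% and 636 CPM, and the RT libraries lie together between 2.06% and 3.22% and between 121 and 142 CPM.

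Values for other cells of the same libraries stood beside this. At least 3 cycle UMIs were found in 59.6% of tumor cells in NT and in 55.0%, 39.9% and 55.5% in the RT libraries, a mean of 50.1% ± 8.88 (SD, n = 3). Among T cells the share was 31.7% in NT (120 barcodes) and 17.5%, 18.1% and 31.6% in RT, the last equal to NT within its counting error. C1q-negative monocytes gave 0 of 36 in NT, where the exact upper limit was 9.74%, and 1.89%, 4.09% and 0.779% in the RT libraries. Neutrophils, which do not divide in tissue, served for free RNA: 1 of 6 in NT, 1.19% of 84 in RT1, and 0 of 139 in RT2 and 0 of 59 in RT3 had 3 cycle UMIs. Their median depth of 656.5, 792, 937 and 700 UMIs was far below that of macrophages, and only 0, 1, 5 and 2 of them reached 3000 UMIs, so free RNA at the depth of macrophages was not measured by them. Whether macrophages and other cells differed in their response was not tested. Barcodes with macrophage genes and Rhox5 were left out as mixed with tumor RNA. Of these, 28 of 72 in NT and 118 of 518, 108 of 611 and 54 of 255 in the RT libraries had 3 cycle UMIs, and with them kept in, the RT mean was 15.1 percentage points below NT in place of 16.1.

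Most members held RNA of both S phase and mitosis, and 2 had no UMI of the first list and 9 none of the second. The median member had 21.5, 17.5, 18 and 7 UMIs of 33 S phase genes and 14.5, 12, 11.5 and 10 UMIs of 42 G2 and mitosis genes in NT, RT1, RT2 and RT3, and neither list held a gene of the rule. More S phase than G2 and mitosis UMIs were found in 133 members, more of the latter in 88 and equal numbers in 5. Those with more G2 and mitosis UMIs made up 42.0%, 40.0%, 32.3% and 42.3% of members. The log2 ratio of the summed lists was −0.09 in NT and −0.22, −0.61 and 0.31 in the RT libraries, a mean of −0.17 ± 0.46 (SD, n = 3). NT lay inside the range of the RT libraries. In cycling tumor cells of the same libraries the ratio was 0.49, 0.35, 0.15 and 0.43.

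Against non-cycling macrophages of the same library, members were higher in the cycle genes that the rule did not name. This contrast is the one the rule chose on, and it is given as a description. Genes were called where the ratio was at least 1 on the log2 scale in the same direction in all 4 libraries, after 0.5 UMI was added to each sum. Of 5748 genes measured, 229 were called higher (3.98%) and 3 lower (0.0522%). The calls included 26 of 31 S phase genes, 37 of 38 G2 and mitosis genes with Pttg1 as the exception, 9 of 11 chromatin and tubulin genes, 6 of 8 DNA repair genes, and 4 of 11 G1 regulators, namely Foxm1, Cdk2, E2f8 and Rbl1. The median log2 ratio of the S phase list was 2.70, 3.20, 3.37 and 2.28 in NT, RT1, RT2 and RT3, and that of the G2 and mitosis list 4.68, 4.23, 4.08 and 3.73, beside 0.12, 0.14, 0.16 and 0.17 over all genes. Outside the lists, the highest were Shcbp1 (5.91 ± 1.21 over the 4 libraries), Neil3, a DNA glycosylase, and Cdkn3, a phosphatase of Cdk1 and Cdk2 (5.31 ± 0.55), with Prr11, Cit, Kif18b, Knstrn, Ska1, Ska3 and Cep55, most of which act in mitosis or cytokinesis. The 3 lower genes were Thbs1, encoding thrombospondin (−1.70 ± 0.45), Vegfa, the endothelial growth factor (−1.55 ± 0.25), and Mmp12, the macrophage elastase. None of 14 macrophage identity genes met the size rule, and their median was −0.15, −0.43, −0.28 and −0.26.

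**Figure D2:**
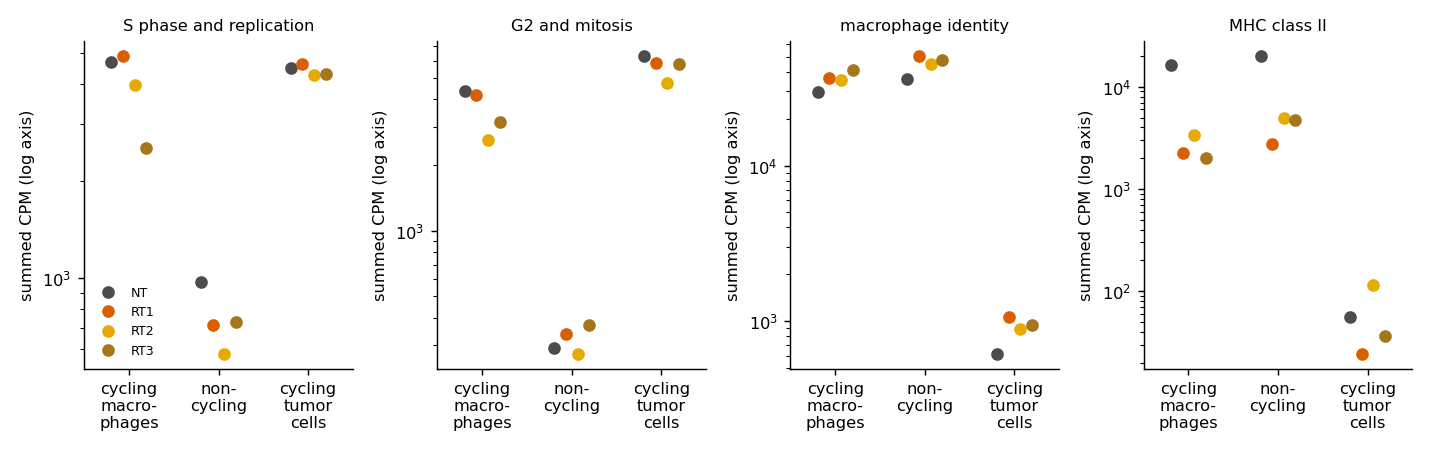
Summed CPM on a log axis of the S phase, G2 and mitosis, macrophage identity and MHC class II lists in cycling macrophages, non-cycling macrophages and cycling tumor cells, 1 point per library. Cycling macrophages lie at 2533 to 4874 CPM of S phase genes and 29771 to 41166 CPM of identity genes, and MHC class II is at 16489 CPM in NT against 1998 to 3372 CPM in RT.

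Promoters of the cycle genes were read from RefSeq (GRCm38.p6), from 250 bases before to 50 after the start, for 36 of 42 G2 and mitosis genes and all 33 S phase genes. The letters TTTGAA or TTCGAA, which make up the cell cycle homology region (CHR) bound by the DREAM and MuvB complexes, were found on either strand in 80.6% of G2 and mitosis promoters, 12.1% of S phase promoters and 19.2% of all 32851 promoters. CCAAT, bound by NF-Y, was found in 80.6%, 54.5% and 37.4%. TTTCCCGC or TTTGGCGC, letters of E2F sites, was found in 0%, 24.2% and 1.56%. Both CHR and CCAAT letters were present in 72.2% of G2 and mitosis promoters, 9.09% of S phase promoters and 7.52% of all. A match is a description of letters and not a bound site. Sequences of 120 bases up to the start are given for the 6 cycle genes of the rule, for Ccnb1 of the G2 and mitosis list and for Pcna and Rrm2 of the S phase list, with the letters of CHR and CCAAT on either strand in capitals.
Mki67 (chr7:135716380-135716499, minus strand): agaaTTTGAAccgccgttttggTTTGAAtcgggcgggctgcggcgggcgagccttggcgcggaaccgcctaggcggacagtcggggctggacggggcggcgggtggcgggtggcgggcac
Top2a (chr11:99024190-99024309, minus strand): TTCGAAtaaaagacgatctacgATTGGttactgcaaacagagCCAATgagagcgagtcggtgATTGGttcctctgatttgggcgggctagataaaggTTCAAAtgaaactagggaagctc
Cdk1 (chr10:69352913-69353032, minus strand): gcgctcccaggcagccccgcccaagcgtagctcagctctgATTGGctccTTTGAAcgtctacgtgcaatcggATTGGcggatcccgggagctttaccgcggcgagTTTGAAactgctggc
Ube2c (chr2:164769809-164769928, plus strand): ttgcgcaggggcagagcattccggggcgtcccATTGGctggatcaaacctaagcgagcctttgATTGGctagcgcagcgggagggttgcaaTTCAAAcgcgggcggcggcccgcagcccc
Birc5 (chr11:117849117-117849236, plus strand): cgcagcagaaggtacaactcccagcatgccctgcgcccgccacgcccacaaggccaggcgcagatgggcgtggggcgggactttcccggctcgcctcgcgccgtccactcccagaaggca
Pclaf (chr9:65890203-65890322, plus strand): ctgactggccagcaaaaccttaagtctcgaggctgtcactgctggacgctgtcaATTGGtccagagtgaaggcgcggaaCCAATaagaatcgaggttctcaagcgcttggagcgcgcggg
Ccnb1 (chr13:100786487-100786606, minus strand): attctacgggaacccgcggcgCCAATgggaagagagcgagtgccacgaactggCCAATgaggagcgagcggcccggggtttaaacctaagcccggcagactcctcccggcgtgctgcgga
Pcna (chr2:132253181-132253300, minus strand): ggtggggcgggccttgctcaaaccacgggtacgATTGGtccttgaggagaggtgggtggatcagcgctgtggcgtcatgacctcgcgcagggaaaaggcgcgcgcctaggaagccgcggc
Rrm2 (chr12:24708134-24708253, plus strand): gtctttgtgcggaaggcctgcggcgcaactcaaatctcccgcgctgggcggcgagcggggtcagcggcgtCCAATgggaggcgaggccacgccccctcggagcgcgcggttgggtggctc

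Mki67, Top2a, Cdk1 and Ube2c show CHR letters. The nearest to the start lie 23, 15 and 29 bases before it in Top2a, Cdk1 and Ube2c and 98 bases before it in Mki67, with CCAAT letters further upstream in the first 3 of these. Pclaf, Ccnb1, Pcna and Rrm2 show CCAAT letters alone in these 120 bases and Birc5 shows neither, so CHR letters near the start were shared by some mitotic genes of the set and not by others.

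The cycle genes of members were compared between RT and NT by size. A gene met the size rule if its log2 ratio was at least 1 in the same direction for each RT library and the exact 95% Poisson intervals of NT and each RT library did not overlap. Of 5527 genes with a mean of at least 20 CPM and 20 UMIs in all, 44 were higher in RT (0.796%) and 24 were lower (0.434%). None of 31 S phase, 38 G2 and mitosis, 11 chromatin and tubulin, 8 DNA repair or 11 G1 genes was among them. The cell cycle gene Pkmyt1, in none of these lists, was called lower. Its log2 ratios were −1.13, −1.34 and −2.44 without the members that carried T and NK cell genes. Pcna, the sliding clamp of DNA polymerases, was at 1153 CPM in NT and 1138, 907 and 697 CPM in the RT libraries. Rrm2, a subunit of ribonucleotide reductase, was at 313 and 279, 291 and 162 CPM, and the helicase subunit Mcm3 at 255 and 178, 142 and 149 CPM. RT1 thus lay near NT for Pcna, RT1 and RT2 for Rrm2, and all RT libraries lay below NT for Mcm3. The cyclin Ccna2 was at 315 CPM in NT and 198, 151 and 230.3 CPM in RT, Ccnb1 at 172 and 247, 107 and 168 CPM, and the condensin subunit Smc4 at 326 and 243, 182 and 230.3 CPM. Ccna2 and Smc4 were lower in every RT library and Ccnb1 overlapped NT. Slbp, which binds histone mRNA, was at 21.8 CPM in NT, 243 and 175 CPM in RT1 and RT2 and 12.4 CPM in RT3. Some other replication genes also lay above NT in RT1 and RT2 and below it in RT3.

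List medians of the cycle genes leaned below NT by less than 1 on the log2 scale. For S phase they were 0.08, −0.28 and −0.75 in the RT libraries, with 13 of 31 genes lower in every RT library, beside 24.8% of all 5527 genes. For G2 and mitosis they were −0.04, −0.71 and −0.45, with 18 of 38 genes lower in every RT library, and for chromatin and tubulin genes −0.35, −0.37 and −0.66, with 10 of 11. The medians over all genes were 0.03, −0.04 and 0.05. Of the chromatin and tubulin list, Ptma was at 4149.8 CPM in NT and 3093, 3214 and 2632 CPM in RT, Tuba1b, an alpha-tubulin, at 2793 and 1951, 1847 and 1276 CPM, and Stmn1, which destabilizes microtubules, at 1197 and 919, 730.4 and 765 CPM. All 3 were lower in each RT library without reaching the size rule. The G1 regulators had medians of −0.58, −0.31 and −0.83, and Foxm1, which drives mitotic genes, was at 77.1 CPM in NT and 28.3, 35.0 and 37.3 CPM in RT.

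Of 20 p53 target genes listed, 15 passed the filter on low values and 1 met the size rule, beside 0.796% of all genes. Of the 8 that were higher in every RT library, Phlda3, Zmat3, Aen, Trp53inp1 and Sesn1 were below 20 CPM in NT and passed the filter through the RT libraries, so nothing is read from the count or from the list medians of 0.74, 0.68 and 1.03. The gene that met the rule was Cdkn1a, which encodes the kinase inhibitor p21. It was at 263 CPM in NT and 999.9, 1352 and 1077 CPM in the RT libraries, a mean log2 ratio of 2.10 ± 0.23 (SD, n = 3). A UMI of Cdkn1a was found in 51 of 88 NT members and in 42 of 50, 57 of 62 and 22 of 26 RT members. The 3 RT libraries lay together and apart from NT. In non-cycling macrophages Cdkn1a was at 335 CPM in NT and 1345, 2059.7 and 1357 CPM in RT. Mdm2, the ligase that degrades p53, was at 184 CPM in NT and 308, 307 and 709 CPM in RT, and the pro-apoptotic Bax at 55.4 and 93.1, 164 and 131 CPM. Both were higher in every RT library but missed the size rule in at least 1. Plk2 and Btg2, abundant members of the list, overlapped: Plk2 was at 1416 CPM in NT and 1332, 1236 and 1450.0 CPM in RT, and Btg2 at 559.8 and 494, 811 and 573 CPM.

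MHC class II genes, which present antigen to CD4 T cells, were the list that stood lowest in RT members. The alpha chain H2-Aa was at 6779 CPM in NT and 887, 1194 and 865 CPM in the RT libraries, the beta chain H2-Ab1 at 4769 and 870.4, 984 and 510.3 CPM, and H2-Eb1 at 3653 and 352, 622 and 373 CPM. Every RT library was below NT by more than its counting interval for these genes, with mean log2 ratios of −2.80 ± 0.26, −2.65 ± 0.50 and −3.07 ± 0.45 (SD, n = 3). Cd74, the invariant chain, was at 1141 CPM in NT and 138, 499 and 236 CPM in RT (−2.16 ± 0.92). H2-DMa and H2-DMb1, which load peptide, were at 53.4 CPM each in NT and at 4.05 to 25.8 CPM in RT without meeting the size rule. The list median was −2.98, −1.73 and −2.75, and 4 of 6 measured genes met the rule, beside 0.434% of all genes called lower. A UMI of H2-Aa was found in 72 of 88 NT members and in 12 of 50, 32 of 62 and 13 of 26 RT members, so the gene was found in a smaller part of the RT members. Single barcodes carried much of what was left in RT, with 80 of 219, 176 of 649 and 80 of 139 UMIs, and without the highest barcode of each gene and library the list median was −3.37 on average in place of −2.49. Non-cycling macrophages had medians of −2.76, −1.78 and −2.01 for this list. MHC class I genes, by contrast, had medians of 0.17, 0.24 and 0.41 in members with none of 12 past the rule. B2m was at 6438 CPM in NT and 7121, 6516 and 8308 CPM in RT.

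**Figure D3:**
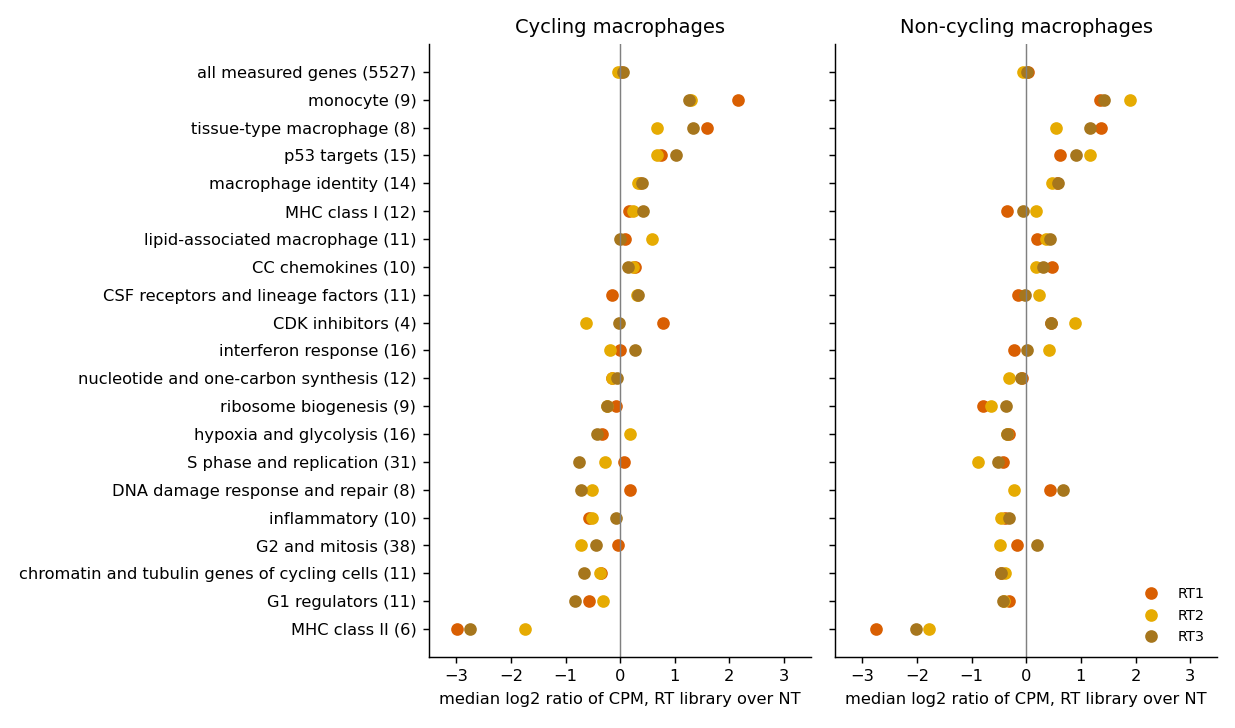
Median log2 ratio of CPM of each RT library over NT for the gene lists and for all measured genes, in cycling (left) and non-cycling macrophages (right), with the number of measured genes in parentheses. MHC class II lies lowest (−2.98 to −1.73 in cycling macrophages) and all genes lie near 0.

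Single markers of tissue-type macrophages were higher in RT members by the size rule. Cbr2, a carbonyl reductase, was at 121 CPM in NT and 883, 572 and 579 CPM in the RT libraries (2.45 ± 0.36). The hyaluronan receptor Lyve1 was at 61.3 CPM in NT and 413, 158 and 168 CPM in RT (1.85 ± 0.77). These 2 of 8 tissue-type genes met the size rule (0.796% of all genes), and 6 were higher in every RT library (25.4% of all genes), 1 of them (Igf1) from below 20 CPM in NT, with list medians of 1.58, 0.68 and 1.33, among them the folate receptor Folr2 at 532 CPM in NT and 1105, 828 and 1301 CPM in RT. Ly6c2, a surface protein of inflammatory monocytes, was at 1.98 CPM in NT and 251, 252 and 180.5 CPM in RT (6.26 ± 0.27). It rested on 1 UMI in NT and on 62, 137 and 29 UMIs in 10, 15 and 5 RT members, so most RT members had none. Without the members that carried T and NK cell genes it had 33, 136 and 21 UMIs in RT, with ratios of 5.62, 6.46 and 5.54 on the log2 scale, and its call held. In RT1, 1 member held 29 of the 62 UMIs. Its near-identical neighbor Ly6c1 makes its counts uncertain. Of the other monocyte genes, Chil3 had no UMI in NT and 85.0, 25.8 and 24.9 CPM in RT, Thbs1 was at 821 and 542, 633 and 367 CPM, and the chemokine receptor Ccr2 was at 125 and 97.2, 84.6 and 6.22 CPM. Ly6c2 alone of 9 met the rule, and the genes of the list that were higher in every RT library, Ly6c2 and Chil3 among them, were below 20 CPM in NT and passed the filter through the RT libraries. Nothing is read from the direction of these genes, Ly6c2 included, or from the list medians of 2.16, 1.30 and 1.27.

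Of 10 CC chemokine genes, Ccl8 and Ccl6 were higher in RT members by the size rule, beside 0.796% of all genes. Ccl8, a ligand that draws monocytes, was at 1155 CPM in NT and 8145, 3288 and 5781 CPM in the RT libraries (2.22 ± 0.66), and was found in 50 of 88, 34 of 50, 44 of 62 and 22 of 26 members. Ccl6 was at 3867 CPM in NT and 8234, 9269 and 8812 CPM in RT (1.18 ± 0.09). Ccl4 ran the other way without meeting the rule, with 8001 CPM in NT and 4607, 3308 and 3161 CPM in RT. Ccl2 and Ccl7 had ratios below 1 on the log2 scale, with Ccl2 at 4231 and 6336, 5361 and 3821 CPM and Ccl7 at 4148 and 4923, 4577 and 4449.6 CPM. Among 10 inflammatory genes, the cytokine Il1b was called lower, beside 0.434% of all genes. It was at 1513 CPM in NT and 457, 539 and 205 CPM in RT (−2.02 ± 0.73), while Cxcl2 was at 2597 and 2579, 2016 and 2309 CPM. None of 16 interferon response genes met the rule, and Cxcl10 was at 3651 CPM in NT and 2599, 1812 and 2894 CPM in RT. Gpnmb, of the lipid-associated list, had no UMI in NT and 10, 53 and 26 UMIs in RT, each RT library at least 6.82-fold above a floor of 3 counts over the NT members. It passed the filter on low values through the RT libraries, so nothing is read from its direction.

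The remaining lists stood nearer to NT. Macrophage identity genes had medians of 0.37, 0.32 and 0.40 in the RT libraries, with 7 of 14 higher in every RT library, beside 25.4% of all genes, and none past the size rule. Apoe, a lipid carrier, was at 835 CPM in NT and 1340.0, 1937 and 1811 CPM in RT, and Ctsb, a lysosomal protease, at 5429.6 and 7862, 7105 and 9826 CPM, so that both were higher in each RT library. Growth factor receptors and lineage factors had medians of −0.15, 0.32 and 0.32 with none of 11 past the rule. Klf4, a factor of monocyte and macrophage fate, was at 973 CPM in NT and 1259, 1212 and 1593 CPM in RT. The interferon list had medians of 0.00, −0.19 and 0.26, the inflammatory list −0.56, −0.52 and −0.08, the CC chemokines 0.28, 0.24 and 0.14, the lipid-associated list 0.10, 0.59 and 0.00, and the hypoxia and glycolysis list −0.33, 0.19 and −0.42. None of these 5 ran past 1 on the log2 scale in any RT library. Lists that feed growth were close to 0 as well, with −0.15, −0.15 and −0.06 for nucleotide and one-carbon synthesis (0 of 12 called) and −0.07, −0.23 and −0.25 for ribosome biogenesis (0 of 9). Hprt, a purine salvage enzyme, was at 330.3 CPM in NT and 319.8, 302 and 311 CPM in RT, and the nucleolar Npm1 at 777 and 680.1, 657 and 504 CPM. DNA repair genes had medians of 0.18, −0.51 and −0.72. The 4 measured kinase inhibitors had medians of 0.79, −0.63 and −0.02, and Cdkn1a was the member called.

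**Figure D4:**
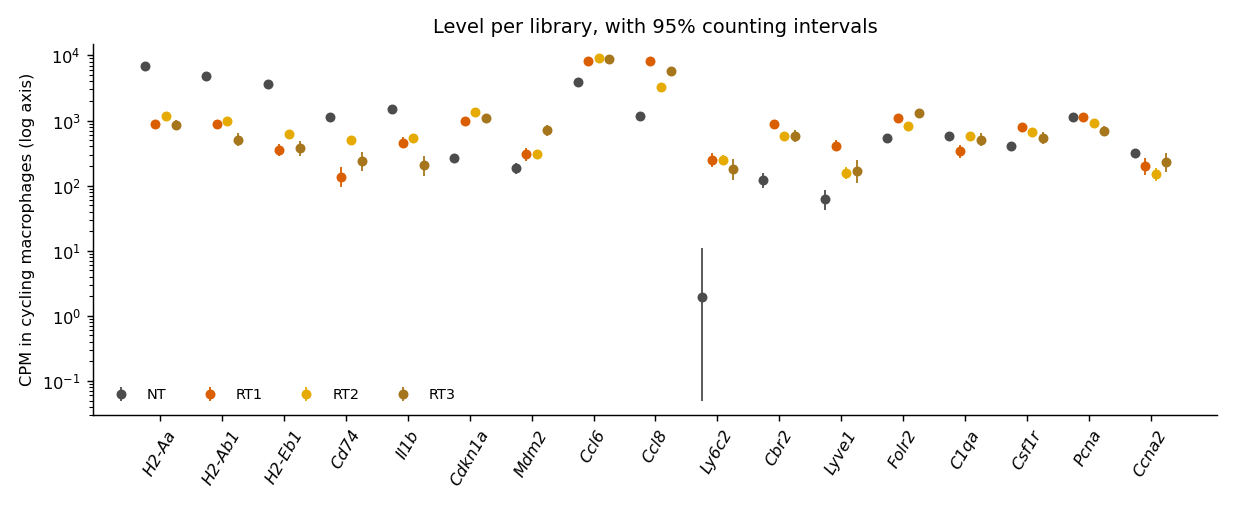
CPM on a log axis of named genes in the summed cycling macrophages of each library, with exact 95% Poisson intervals. H2-Aa, H2-Ab1, H2-Eb1, Cd74 and Il1b are highest in NT, Cdkn1a, Ccl6, Ccl8, Ly6c2, Cbr2 and Lyve1 lowest in NT, and Pcna and Csf1r differ less between libraries. Ly6c2 passed the filter on low values through the RT libraries, and nothing is read from its direction.

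Outside the lists, the genes higher in RT members were of mixed kinds. Siglec1, a sialic acid receptor of tissue macrophages, was at 15.8 CPM in NT and 113, 101 and 74.7 CPM in the RT libraries (2.53 ± 0.29). The early response gene Ier3 was at 206 CPM in NT and 972, 1115 and 853 CPM in RT (2.24 ± 0.19), and complement factor B, Cfb, at 53.4 and 202, 197 and 193 CPM (1.87 ± 0.03). Lgals3bp, a galectin-3 ligand, was at 107 CPM in NT and 555, 394 and 504 CPM in RT, and Snx8, Myo7a and Tmem8 were at 21.8, 11.9 and 13.8 CPM in NT and 64.8 CPM or more in each RT library. For these genes all RT libraries lay above NT. Siglec1, Myo7a and Tmem8 were below 20 CPM in NT and passed the filter through the RT libraries. Nothing is therefore read from the direction of these 3. Gzmb, the granzyme of killer lymphocytes, had no UMI in NT and 7, 157 and 46 UMIs in RT, each RT library at least 4.78-fold above a floor of 3 counts over the NT members, and Il2rb, a receptor of the same cells, had 0 and 12, 42 and 5 UMIs, each at least 5.24-fold above it. Gzmb came from 2, 4 and 1 RT members, 1 of them with 127 of the 157 UMIs in RT2, and without the 6 members that carried T and NK cell genes it had 0, 0, 2 and 0 UMIs. Without those 6, 38 of the 44 higher calls and 23 of the 24 lower ones held, and Gzmb, Il2rb, Cables1, 2310022A10Rik, Rpl27, Rpl9 and, among the lower ones, Lair1 did not. Of these, Gzmb and Il2rb lost nearly all of their UMIs, while the other 5 missed a threshold of the rule with ratios of the same sign. Cables1 had log2 ratios of 3.46, 2.89 and 3.58 and Lair1 of −1.23, −0.96 and −1.42 without those members. Cables1 had 1 UMI in NT, 1.98 CPM, and passed the filter through the RT libraries, so nothing is read from its direction. Without the barcode with the most UMIs of each gene in each library, 32 and 21 of these calls held, and Siglec1, Hspb1 and Lpar6 were among those lost. Siglec1 then had 6 UMIs in NT and 24, 46 and 8 in RT. Hspb1 had 26 and 0, 0 and 0, and Lpar6 28 and 2, 4 and 0. Without the members of highest doublet score 35 and 20 held, and Myo7a and Lpar6 were among those lost.

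Genes lower in RT members outside the lists included integrins and receptors of myeloid cells. The fractalkine receptor Cx3cr1 had 47 UMIs in 22 of 88 NT members and 0, 2 and 0 UMIs in the RT libraries, so no exact ratio is given. Itgax, which encodes CD11c, was at 166 CPM in NT and 16.2, 33.1 and 31.1 CPM in RT (−2.59 ± 0.52), and Itgal, which encodes CD11a, at 131 and 20.2, 31.3 and 31.1 CPM. The collagenase Mmp13 was at 617 CPM in NT and 154, 73.6 and 131 CPM in RT (−2.42 ± 0.56). Rgs1, which dampens chemokine receptor signals, was at 3331 CPM in NT and 753, 1027 and 1045 CPM in RT (−1.84 ± 0.27), and Tmem176b at 216 and 32.4, 40.5 and 49.8 CPM. Hspb1, a small heat shock protein, was at 77.1 CPM in NT and 0, 1.84 and 6.22 CPM in RT. All RT libraries lay below NT for each of these genes, which Lpar6 and Gm5150 completed. The heat shock genes Hspa1a and Hspa1b, near-identical copies whose counts may be shared out wrongly, were called lower in RT, with 7101 and 4118 CPM in NT, 2664, 3341 and 3211 CPM of Hspa1a and 822, 1521 and 1879 CPM of Hspa1b in RT, and so was the early response gene Nr4a2. The early response genes Fos and Jun were not called, with Fos at 7285 CPM in NT and 7097, 7228 and 6061 CPM in RT and Jun at 3131 and 2554, 2451 and 3062 CPM. The part of stress genes in the other results was not tested. Retnla had 291 UMIs in NT and 4, 5 and 0 in RT, but 2 of 88 NT members held all 291 and 1 of them 196.

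Calls in members were set beside those in non-cycling macrophages, in which 120 of 5070 genes were higher in RT (2.37%) and 42 lower (0.828%). The larger sums of non-cycling barcodes, 1029763 to 7669629 UMIs against 160690 to 543553 in members, bear on these counts through the interval part of the rule. Of 4849 genes measured in both, 41 were higher in members and 113 in non-cycling macrophages, with 27 in both, 65.9% of the first list and 23.9% of the second. Of the lower genes, 15 were in both, 68.2% of the 22 in members and 38.5% of the 39 in non-cycling macrophages. Cdkn1a, Ccl8, Ccl6, Cbr2, Lyve1, Ly6c2, Siglec1, Ier3, Cfb, H2-Aa, H2-Ab1, H2-Eb1, Cd74, Il1b, Cx3cr1 and Itgax were called in both. Of these, Ly6c2 and Siglec1 were below 20 CPM in NT members and passed the filter there through the RT libraries. Nothing is read from their direction. Rgs1 and Tmem176b were called in members alone, with mean log2 ratios of −0.90 and −1.04 in non-cycling macrophages, and whether the ratios differ between the populations was not tested. Retnla alone was called in opposite directions.

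**Figure D5:**
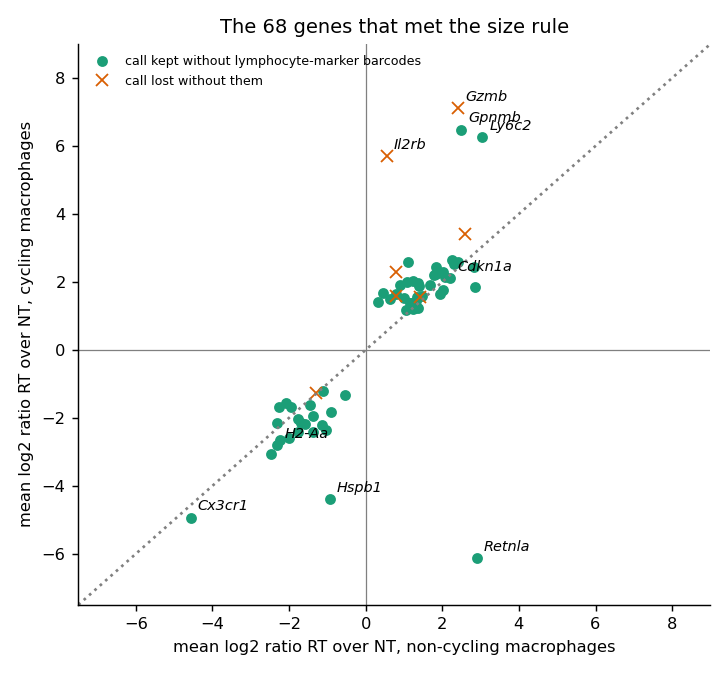
Mean log2 ratio of CPM, RT over NT, in non-cycling (x axis) and cycling macrophages (y axis) for the 68 genes that met the size rule in cycling macrophages, with the line of equal ratios dotted. Crosses mark the 7 genes whose call was lost without the members carrying T and NK cell genes. Of these, Gzmb and Il2rb lost most of their UMIs. The other 5 missed a threshold, for example Lair1 at −1.23, −0.96 and −1.42 without those members. Retnla is the single point at lower right.

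Among macrophages of one library, the cycling share was compared between marker classes after thinning to 3000 UMIs. Barcodes that lost their Rhox5 UMIs in thinning could enter these classes too. Barcodes with Ccl8 cycled in 16.7% against 20.6% of those without it in NT, and in 2.90% against 4.64%, 1.85% against 2.64% and 2.51% against 4.65% in the RT libraries. The share was lower with Ccl8 in 4 of 4 libraries, by a mean of 2.16 ± 1.33 (SD, n = 4) percentage points. Without thinning the mean ran the other way, by 1.13 percentage points, so the direction for Ccl8 depends on it. Barcodes of the monocyte class, with Ly6c2 or Chil3, cycled in 10.4% against 2.66%, 3.17% against 1.88% and 5.88% against 2.54% in the RT libraries, from 77, 221 and 51 positive barcodes. In NT, where only 10 barcodes were of this class, it ran the other way, with 1 of 10 cycling (exact 95% interval 0.253% to 44.5%) against 18.7%. MHC class II barcodes cycled in 19.1% against 15.5% in NT and in 2.40% against 3.48%, 1.91% against 2.15% and 1.83% against 3.57% in RT. Shares with the monocyte class were thus higher in each RT library and lower in NT, also without thinning, at 6.42% against 1.86%, 3.65% against 2.62% and 3.43% against 2.59% in RT and 5.56% against 19.2% in NT. The thinned counting intervals of both shares overlapped in RT2 (1.28% to 6.42% against 1.23% to 2.74%) and RT3 (1.23% to 16.2% against 1.23% to 4.63%). For MHC class II the direction turned in all 4 libraries without thinning, with 18.1% against 21.3% in NT and 2.49% against 2.27%, 3.06% against 2.64% and 3.13% against 2.52% in RT, and no direction is read from it. The RT library shares stayed below every NT share given here, with the exception of the monocyte class, where RT1 and NT were equal within the counting error of 10 NT barcodes.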

How the data were processed

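Droplet-free 3′ single-cell libraries (SeekOne MM microwell kit) of 4 samples were used as the authors deposited them, as tables of raw UMI counts per gene and barcode. The submitters' processing notes name STAR 2.5.1b, featureCounts of Subread 1.6.4, Cell Ranger and GRCm39 or mm39, without saying what each made, and the gene symbols are of the GRCm38 era, so the build of the counts is not settled and no coordinate of theirs is printed. The RT2 table holds 18605 genes and was filtered before deposit, with at most 12.0% mitochondrial UMIs, whereas the others hold 32285, and the 18605 common genes were used throughout. The libraries' deposited barcodes numbered 10141, 15346, 14994 and 15324, with 5709, 3865, 5200 and 4158 median UMIs in NT, RT1, RT2 and RT3.

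The members and gene lists were chosen with earlier results of these data known. UMIs were summed per library over members and divided by their total (CPM). Exact binomial and Poisson intervals are at 95% and cover counting error only, since barcodes of 1 library are not replicates. With NT as 1 library, genes were called by size (log2 ratio of at least 1 against each of the 3 RT libraries with intervals apart), and edgeR 4.0.16 and DESeq2 1.42.0 fits in R 4.3.3 served as alternatives only, with NT assumed to vary like RT. Genes were named by a rule: those that chose the members, the 4 most abundant and up to 4 called genes of each list, and the 10 largest calls in each direction outside the lists. Bax, Ccl7, Ccnb1, Ccr2, Chil3, Fos, Foxm1, H2-DMa, H2-DMb1, Hspa1a, Hspa1b, Jun, Mcm3, Mdm2, Nr4a2, Pkmyt1, Slbp, Stmn1 and the members of counts of 7 or fewer were named after their values were seen. Doublets were scored per library from 2000 variable genes and 30 principal components but left in, and the 8% highest scores were left out in an alternative. Thinning to 3000 UMIs used a fixed seed. Analyses ran in Python 3.11.15 with numpy 2.4.6, scipy 1.17.1, scikit-learn 1.9.0 and matplotlib 3.10.9, and each procedure was tested on simulated data. Alternatives without T and NK cell barcodes, with Rhox5 barcodes and without the highest barcode of a gene were chosen after seeing the data. A further marker class is not reported here.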

Additional observations from a re-analysis of the deposited data

Results flagged for a closer look

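In 3 cases RT and NT stood in opposite order in cycling macrophages and in another population of the same libraries, and none of these differences was tested. Retnla had a mean log2 ratio of −6.12 in cycling macrophages, where 2 NT members held its 291 UMIs, and of 2.89 in non-cycling macrophages. Ppbp, a platelet chemokine, had −1.84 in cycling macrophages, where it was at 61.3 CPM in NT and 32.4, 47.8 and 0 CPM in the RT libraries, and 3.00 in non-cycling macrophages. C1q-negative monocytes with at least 3 cycle UMIs averaged 2.25% in RT against 0 of 36 in NT, while the cycling share of macrophages was lower in RT, and the exact upper limit for NT of 9.74% covers all 3 RT values.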

How the results depend on the processing

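The share of macrophages that cycled was lower in RT under every alternative run. The difference of −16.1 percentage points was −18.8 with at least 2 cycle UMIs, −12.1 with at least 5, −16.4 without keratin barcodes, −18.8 with at least 10 C1q UMIs, −14.9 without the highest doublet scores, −15.7 after thinning to 3000 UMIs and −15.1 with Rhox5 barcodes kept in, and −16.2 to −15.9 with each RT library left out in turn. As a share of kept barcodes it was −0.576, with −0.451 at 2 cycle UMIs and −0.629 to −0.509 without single RT libraries. At equal depth it was −15.7, with −17.4, −12.3, −16.3, −16.6 and −14.0 under the first 4 of those alternatives and Rhox5 kept in, −15.0 with at most 10% mitochondrial UMIs, −14.8 with Rhox5 at 0 before thinning, −25.2 at 5000 UMIs and −15.9 to −15.3 without single RT libraries.

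Counts of called genes moved more. The 44 genes higher in RT became 80 with at least 2 cycle UMIs, 29 with 5, 175 without the interval part of the rule, 76 at a log2 ratio of 0.58, 28 by edgeR and 23 by DESeq2, and 61 to 105 without single RT libraries. The 24 lower genes became 60, 40 without intervals, 41 at 0.58 and 10 by DESeq2, and 38 to 41 without single RT libraries. Of 5527 genes, edgeR gave 504 an unadjusted p under 0.05, and DESeq2 gave no adjusted p for 2679. Cycling against non-cycling calls went from 229 higher to 128 with at least 2 cycle UMIs, 3328 without a filter on low counts, 127 at a mean of 50 CPM and 241 to 309 without single RT libraries, and from 3 lower to 1, 11, 6, 5 and 6 with at least 2 or 5 cycle UMIs, without keratin barcodes, by TMM and without a filter, and 6 to 9 without single RT libraries. The MHC class II list median of −2.49 was −3.37 without the highest barcode of each gene, and −2.87 to −2.24 without single RT libraries. The phase balance difference of −0.08 ranged from −0.32 to 0.14 without single libraries. The MHC class II class difference of 0.139 percentage points, smaller than its SD, was 0.264 to 0.765 without single RT libraries but −1.15 and −0.367 with at least 2 and 5 cycle UMIs, −1.21 at 5000 UMIs and −0.485 without thinning. The nucleotide synthesis list median reversed to 0.10 with at least 5 cycle UMIs, and the Ccl8 class difference to 1.13 without thinning, and the cause was not tested. Of 32 named called genes, 20 kept their call in every alternative.

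No paired analysis was possible because NT is 1 library of mixed tumors. The 26 members of RT3 and their 160690 UMIs set the precision of every rule that needs all 3 RT libraries, and genes under about 20 CPM were not measured.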
